A study of Danio rerio with 4 samples.

Results

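The comparison described here is the knockdown of rbm14 in zebrafish embryos (Danio rerio) at 24 hours post fertilization (hpf), a library from embryos given rbm14 morpholinos against a library from embryos given a control morpholino. Morpholinos are antisense oligomers that block translation or splicing of a target mRNA, and the labels do not say which of these the rbm14 morpholinos do. Embryos received 2 nl at the one-cell stage, holding either 8 ng of control morpholino or 4 ng each of morpholinos against rbm14a and rbm14b. Every embryo in both groups also carried 300 pg of GFP mRNA as an injection marker, and 50 embryos were pooled per library. Strain and genotype are not given in the labels. There was 1 library a side, and the same pair exists at 10 hpf. There was therefore no replicate check, and each fold below describes these libraries. Of 28697 genes in the authors' table, 9121 reached 5 TPM in either 24 hpf library, and all of these are compared. No uninjected, rescue or further morpholino group was analysed here. An effect of the rbm14 morpholinos beyond their targets and an effect of losing Rbm14 therefore cannot be told apart.

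Rbm14 is a nuclear RNA-binding protein with RNA recognition motifs and a low-complexity tail, known in human cells as a component needed to build paraspeckles and as a coactivator of transcription. Cells answer DNA damage and other stress by switching on genes that halt the cell cycle, repair DNA or trigger apoptosis. At 24 hpf a zebrafish embryo has a segmented, twitching trunk, a beating heart, the first circulating red cells, a lens and the first pigment cells, which makes it possible to read many tissues from whole-embryo RNA.

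The authors' values are TPM, a transcript abundance corrected for length and set to one total in all libraries, so they keep no sequencing depth and no counting interval could be given. TPM of all transcripts with the same symbol were summed. The middle of the distribution lay at a higher TPM in the rbm14 library, by 0.64 on the log2 scale or 1.558-fold, and this shift was taken out before genes were compared. Folds below were computed from scaled log2(TPM + 0.5) values, so those of weakly expressed genes are understated, whereas the TPM printed are as deposited. In the values that follow, the control pool is the 24 hpf control library and the knockdown pool the 24 hpf rbm14 library, and a pair of TPM gives the control first. A gene was called higher or lower when it differed by at least 2-fold and reached 5 TPM in either library.

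By that rule 639 genes, 7.01% of those compared, were higher with the rbm14 morpholinos and 807 genes, 8.85%, were lower. Another 7675 genes differed by less than 2-fold. Without rescaling, 2460 genes (27.0%) were higher and 250 (2.74%) lower, so the direction of genes near the middle rests on the scaling. In brackets after the counts of a gene list below, the unrescaled pair gives the members higher and then those lower without rescaling. Scaled counts of a list are to be read beside the 7.01% and 8.85% over all genes, and unrescaled counts beside 27.0% and 2.74%. At 4-fold or more there were 105 higher and 128 lower genes, and at 8-fold or more 33 and 41. Of the called genes, 5 of the higher ones were listed at 0 in the control and 7 of the lower ones were listed at 0 in the rbm14 library, and no fold is given for these.

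The share of genes called lower was largest among the most abundant transcripts, and the share called higher was largest among the weakest. Of 1287 genes whose mean scaled level was under 5 TPM, 275 (21.37%) were higher and 123 (9.56%) lower. Their median log2 ratio was 0.46 (1.03 without rescaling). Such weak genes entered only where a library reached 5 TPM as deposited, before scaling. More of them could enter through the rbm14 library, whose deposited TPM lay higher. These shares and this median therefore depend on the floor and do not describe weak genes in general. Of 154 genes whose mean scaled level was 1000 TPM or more, 82 (53.25%) were lower and 1.3% were higher, with a median log2 ratio of −1.04 (−0.40 without rescaling). The 100 highest genes of each library held 59.05% of all TPM in the control and 51.64% in the rbm14 library. The number of genes at 5 TPM or more was 7000 in the control and 8866 in the rbm14 library. The most abundant genes thus held less of all TPM in the rbm14 library, and lists of very abundant genes below should be read beside this.

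**Figure D1:**
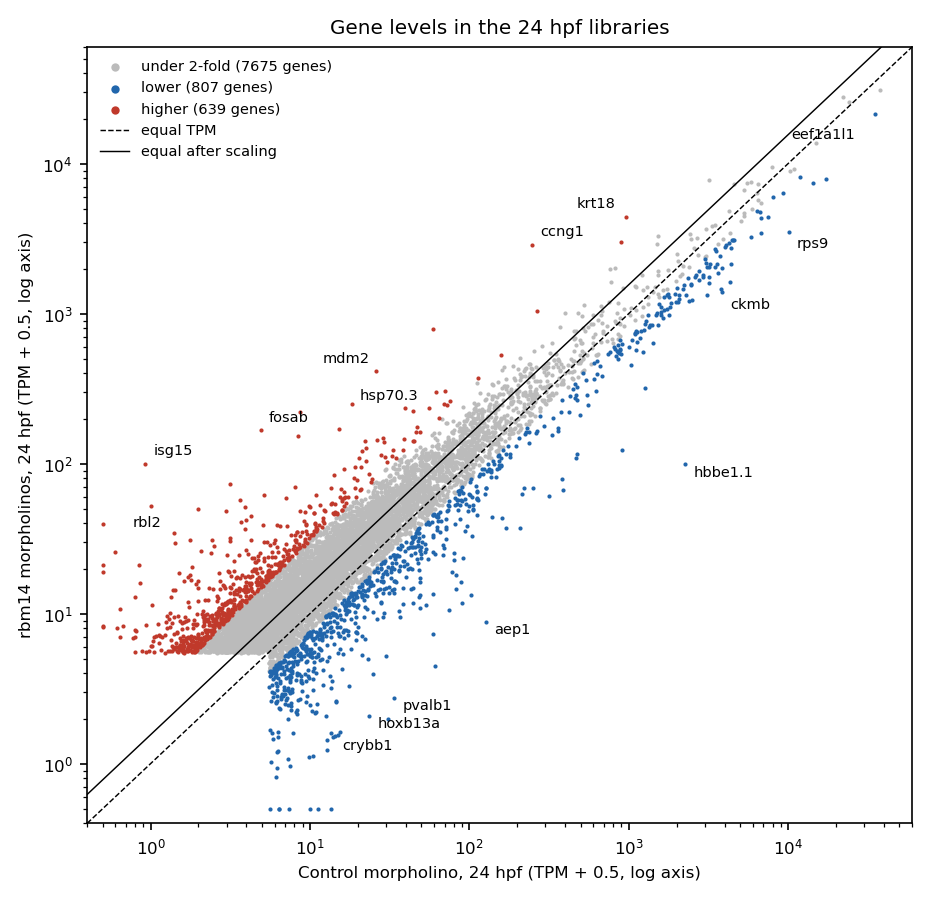
TPM plus 0.5 of each of the 9121 genes in the rbm14 library (vertical, log axis) against the control library (horizontal, log axis), 1 point a gene. Red points are the 639 genes called higher, blue points the 807 called lower, the solid line marks equal levels after scaling and the dashed line equal TPM. The most abundant genes lie mostly below both lines, while mdm2, ccng1 and isg15 lie far above.

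Both libraries carried transcripts that fit their stage. The hatching enzyme he1a, made by the hatching gland, stood at 7916 TPM in the control pool against 9521 TPM in the knockdown pool, whereas both 10 hpf libraries were near 16 TPM. The heart light chain myl7 stood at 28.8 and 27.22 TPM and was under 0.1 TPM at 10 hpf. Of the gastrula organizer genes, which mark the earlier stage, gsc was listed at 0 and 0.33 TPM and chd at 0.90 and 1.57 TPM in these pools. Of the stage markers only the lens gene cryaba was listed at 0 in all 4 libraries. Other markers of the 24 hpf stage differed between the pools, with values given below. The genes hbae1, hbbe3, mylpfa and dct were called lower with the rbm14 morpholinos and elavl3 higher, while krt4 was not called. By summed TPM the targeted genes were not called in either direction. The gene rbm14a stood at 70.5 and 82.7 TPM and rbm14b at 21 and 28.2 TPM. Shares of single transcripts differed. The rbm14b transcript ENSDART00000160709, under 5 TPM in all 4 libraries, held 0.571% in the control pool and 16.152% in the knockdown pool. At 10 hpf it held 3.334% and 23.74%. The rbm14a transcript ENSDART00000142071 held 11.053% and 24.093%, and 15.147% and 24.588% at 10 hpf. The other transcripts of both genes held smaller shares in the rbm14 library at each stage. The cause was not tested, and an mRNA level does not measure a block of translation.

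Of the 72 gene lists compared, the genes of the damage response and of cell cycle arrest had the highest median. Of 33 measured members, 15 were higher and 1 was lower (unrescaled 18 and 0), with a median log2 ratio of 0.80 against 0.04 over all genes compared. Without rescaling the median was 1.41. The 1 lower member was called only with the scaling. The list held 0.188% of all TPM in the control and 0.634% in the rbm14 library.

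The ubiquitin ligase gene mdm2, induced by DNA damage, stood at 25.6 TPM in the control pool against 416 TPM in the knockdown pool, 10.3-fold higher. At 10 hpf it stood at 38.8 and 58.2 TPM in the control and knockdown pools. Cyclin G1, encoded by ccng1 and induced by DNA damage, stood at 247 and 2892 TPM (7.5-fold higher). The p21 cell cycle inhibitor cdkn1a stood at 7.88 and 151 TPM, 11.8-fold higher. The gene phlda3, which encodes a repressor of Akt signalling, stood at 8.23 and 222 TPM, 16.6-fold higher. The stress sensor gadd45aa stood at 2.66 and 72.8 TPM, 15.4-fold higher. The forkhead factor gene foxo3b, on the same list, stood at 1.27 and 30.4 TPM, 11.9-fold higher. In each of these genes the rbm14 library of 24 hpf was the highest of the 4 libraries. DNA repair genes were mostly level: of 26 measured members 1 was higher and none lower (unrescaled 2 and 0), the higher one being the damage sensor ddb2 at 3.39 and 13.5 TPM in the control and knockdown pools.

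For mdm2 the main transcript ENSDART00000077854 stood at 15.08 and 213 TPM, and ENSDART00000139543 at 3.12 and 84.8 TPM. A further mdm2 transcript, ENSDART00000138359, was listed at 0 in the control and at 31.5 TPM in the rbm14 library.

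Genes that start apoptosis were higher in part. Of 18 measured inducers 5 were higher and none lower (unrescaled 7 and 0), and the list's median was 0.20 (0.83 without rescaling). The BH3-only gene bbc3, also called puma, which frees the mitochondrial death pathway, stood at 0.93 TPM in the control pool against 29 TPM in the knockdown pool (14.3-fold higher). The pore-forming gene baxa stood at 18.4 and 79.5 TPM (2.74-fold higher), and casp8, the initiator caspase of death receptors, at 1.92 and 30.4 TPM (8.57-fold higher). The death receptor kinase gene ripk1l, at 0.99 and 5.07 TPM, lay just above the floor of 5 TPM. Of 12 inhibitors of apoptosis none was higher and 1 lower (unrescaled 3 and 0), the latter being the Bcl2 relative mcl1a at 73 and 52.6 TPM. Both that call and the lack of higher inhibitors rested on the scaling, and the log2 ratio of mcl1a was −1.10 scaled and −0.47 without rescaling. The other higher inducer was diabloa, named after its values were seen, and the rest of both lists differed by less than 2-fold.

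Stress and signal-induced genes showed a small number of very large differences. Among 28 immediate early genes, which are transcribed within minutes of a stimulus, 3 were higher and none lower (unrescaled 9 and 0). These were the AP-1 subunits fosab, at 4.41 TPM in the control pool against 167 TPM in the knockdown pool (22.4-fold higher), and fosl1a, at 1.57 and 25.9 TPM, and the stress factor atf3, at 2.68 and 17.2 TPM. The highest fold among genes with a plain symbol and a value above 0 in both libraries was that of isg15, a ubiquitin-like protein induced by interferon and by other stress, at 0.43 and 99.4 TPM (77.3-fold higher). At 10 hpf isg15 stood at 17.2 and 17.6 TPM, so its control level at 24 hpf was the lowest of the 4 libraries. A second interferon-type gene, ifit8, stood at 0.12 and 7.55 TPM, and b2m, the light chain of class I molecules, was 3.68-fold lower at 10.1 and 3.83 TPM (log2 ratio −1.29 without rescaling). Only 5 interferon-type genes reached 5 TPM, of 34 matched in the table.

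Of 26 cytosolic chaperones and their partners 9 were higher and 2 lower (unrescaled 14 and 0), with a median of 0.42 (1.06 without rescaling). The stress-inducible Hsp70 genes were among the higher members, with hsp70.3 at 17.8 TPM in the control pool against 249.6 TPM in the knockdown pool (8.81-fold higher), hsp70l at 3.21 and 40.1 TPM and hsp70.2 at 3.41 and 36.1 TPM. These copies are nearly identical, so the division of reads among them is uncertain. The related co-chaperone hspa4a stood at 5.29 and 25.3 TPM, 2.92-fold higher. The constitutive chaperones hspa8, at 5295 and 4696 TPM, and hsp90ab1, at 1520.0 and 1798 TPM, differed by less than 2-fold.

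In the endoplasmic reticulum (ER), 4 of 33 chaperone and stress sensor genes were higher and none lower (unrescaled 14 and 0). The calcium-binding chaperone calr3b stood at 28.9 TPM in the control pool against 139.9 TPM in the knockdown pool (3.08-fold higher), the sensor kinase gene ern1 at 1.73 and 8.68 TPM, the secreted stress factor manf at 9.93 and 33.6 TPM and hyou1, an ER member of the Hsp70 superfamily, at 10.48 and 35.3 TPM. Of 30 genes of the integrated stress response, the programme run by Atf4, 2 were higher and 3 lower (unrescaled 6 and 0). The higher ones were the transcription factor atf5a at 3.85 and 23 TPM and the mTOR inhibitor ddit4 at 75.7 and 261 TPM. Of the 3 lower ones, called only with the scaling, phgdh had the lowest ratio, at 9.08 and 4.85 TPM. The median of the list was −0.08 (0.54 without rescaling, the opposite sign). The lead factor atf4a was not called, at 937 and 830.4 TPM. Among 27 antioxidant genes 2 were higher and 4 lower (unrescaled 3 and 1). Of the lower ones, the peroxidase gpx4a stood at 864 and 547 TPM and gpx1a at 112 and 64 TPM. The highest ratio was that of zgc:92066, matched from the name fthl27, at 893 and 2999 TPM (2.16-fold higher). A lysosomal protease, ctsc, stood higher at 69.5 and 306 TPM, and another, ctsba, lower at 361 and 172 TPM, among 32 autophagy and lysosome genes with 2 higher and 2 lower (unrescaled 6 and 1).

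**Figure D2:**
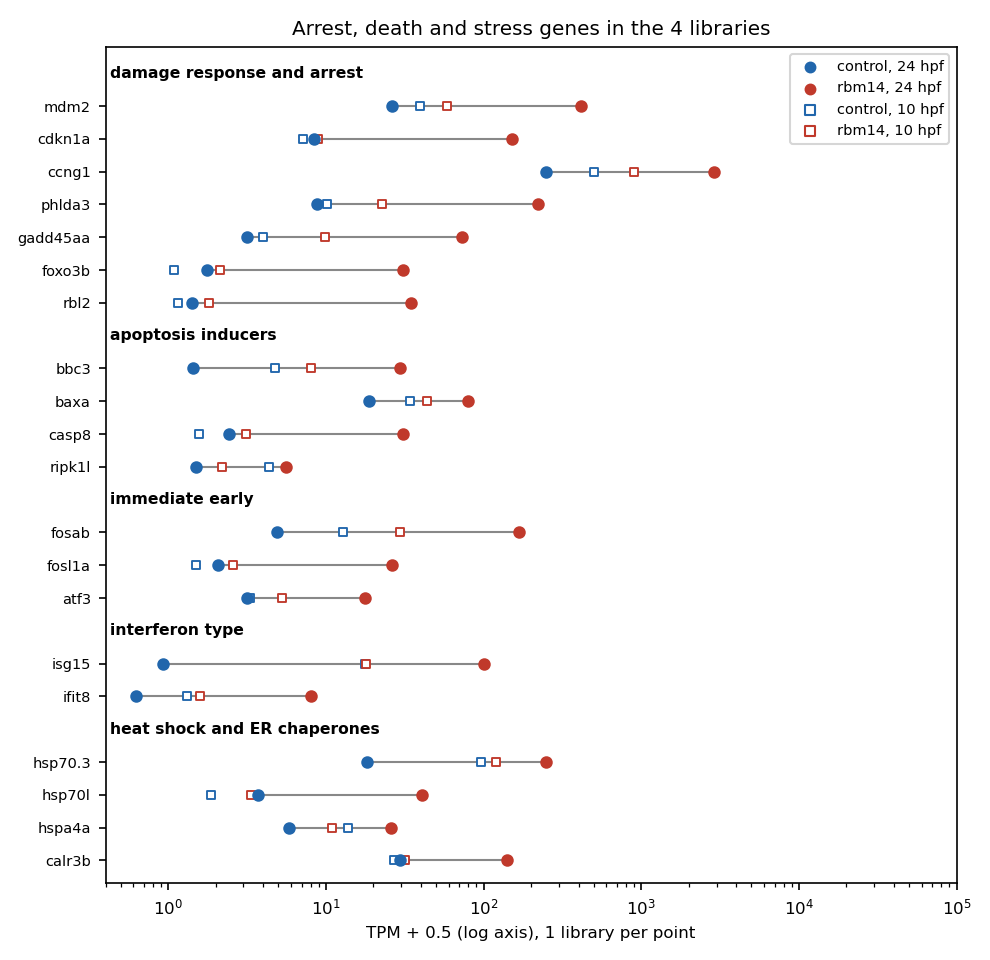
TPM plus 0.5 (log axis) of 20 named arrest, apoptosis, immediate early, interferon-type and chaperone genes in each of the 4 libraries, 1 library per point. Filled circles are the 24 hpf libraries, joined by a line, and open squares the 10 hpf libraries. For every gene drawn the red circle of the 24 hpf rbm14 library lies farthest to the right.

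The called members of the cell cycle lists differed in direction. Of 25 genes of the G1 phase and the Rb and E2F families, 5 were higher and none lower (unrescaled 8 and 0). The median of this list was −0.07 (0.56 without rescaling, the opposite sign). The pocket protein gene rbl2 (p130), which holds quiescent cells in arrest with E2F, stood at 0.91 TPM in the control pool against 34 TPM in the knockdown pool, 17-fold higher. Besides cdkn1a, the p27 inhibitor gene cdkn1ba stood at 71.8 and 245 TPM, 2.19-fold higher. The kinase gene cdk6, which drives G1, was higher as well, at 1.52 and 6.25 TPM.

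Of 43 DNA replication genes none was higher and 7 lower (unrescaled 1 and 1), with a median of −0.67, and of 50 mitosis genes none was higher and 10 lower (unrescaled 1 and 0), with a median of −0.66. Without rescaling these medians were −0.03 and −0.04, so proliferation genes were lower relative to the typical gene and about level in TPM. The replicative helicase subunit mcm7 stood at 679 TPM in the control pool against 383 TPM in the knockdown pool (2.75-fold lower), and the origin subunit orc2 at 24.4 and 9.83 TPM (3.7-fold lower). The mitotic cyclin ccnb1 stood at 238 and 163 TPM, the checkpoint kinase bub1 at 18.6 and 11 TPM and the topoisomerase top2a at 40.5 and 26.8 TPM. The replication clamp pcna, which is also on the damage response list, stood at 482 and 468 TPM and was not called. Of chromatin proteins, 8 of 26 histone and high mobility group genes were lower and none higher (unrescaled 0 and 0), with a median of −0.89 that was −0.25 without rescaling. Among the lower ones were hmgn2 at 3627 and 1872 TPM and the linker histone h1f0 at 2935 and 1763 TPM.

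Most genes for cytosolic ribosomal proteins, the structural proteins of the translation machinery, were lower relative to the typical gene with the rbm14 morpholinos. Of 47 proteins of the large cytosolic ribosomal subunit 39 were lower (unrescaled 0 and 3), and of 34 of the small subunit 30 (unrescaled 0 and 4), with none higher in either. The medians were −1.21 and −1.28, and without rescaling they were −0.57 and −0.64. A scaling that follows the level of each gene (loess) gave −0.43 and −0.42. Both lists together held 9.7% plus 8.27% of all TPM in the control and 6.47% plus 5.02% in the rbm14 library.

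The small subunit protein gene rps9 stood at 10079 TPM in the control pool against 3526 TPM in the knockdown pool (4.45-fold lower), while rplp1, for a stalk protein, had 4379 and 2139 TPM (3.19-fold lower). The paralog rpl22l1, which is present at a lower level, stood at 219 and 68 TPM (4.98-fold lower). The small subunit gene rps2 stood at 6762 and 4326 TPM, and its unrescaled log2 ratio was −0.64. At 10 hpf the same 2 lists had medians of 0.44 and 0.41, each with their own scaling.

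Other parts of gene expression differed less. Of 50 translation factors 9 were lower and 1 higher (unrescaled 7 and 1). The elongation factor gene eef1b2 stood at 1222 and 558 TPM (3.41-fold lower), and eef1a1l1, a very abundant transcript, at 35061 and 21454 TPM, which was 2.55-fold lower but had a log2 ratio near 0 with the loess scaling. Mitochondrial ribosomal proteins, of which 3 of 67 were lower (unrescaled 4 and 0), had a median of −0.17 (0.46 without rescaling, the opposite sign). Nucleolar genes for ribosome assembly had a median of 0.13, with 2 of 58 higher (unrescaled 11 and 0), the processome subunit imp3 at 13.5 and 46.4 TPM and the RNA polymerase I subunit polr1b at 4.4 and 14.5 TPM.

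Splicing and paraspeckle genes, the groups closest to the known functions of Rbm14, were near the middle of all genes in these libraries. Of 78 splicing factors 4 were lower and none higher (unrescaled 7 and 0), with a median of −0.22 (0.41 without rescaling, the opposite sign). The lower ones included the SR protein srsf6a at 135 and 81 TPM and hnrnpr at 158 and 98.2 TPM. Of 25 paraspeckle and FET-type RNA-binding genes none was called (unrescaled 1 and 0), with log2 ratios from −0.72 to 0.43. Of 39 proteasome subunits and activators 1 was higher, the nuclear activator psme3 at 44.1 and 141 TPM, and 1 lower (unrescaled 7 and 0), psmd5 at 8.5 and 5.75 TPM. Of 15 chaperonin and prefoldin genes none was called (unrescaled 1 and 0).

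Energy genes were lower relative to the typical gene, most of all glycolysis. Of 22 glycolysis genes 12 were lower and 1 higher (unrescaled 1 and 2), with a median of −1.09 (−0.46 without rescaling). The muscle-type mutase pgam2 stood at 37.7 and 14.3 TPM, lactate dehydrogenase ldha at 33.2 and 16.1 TPM and the isomerase gpia at 28.2 and 16.1 TPM. The 1 higher member was the glucose transporter slc2a1a, at 8.66 TPM in the control pool against 40.9 TPM in the knockdown pool (2.94-fold higher). Several of the lower ones, pgam2 among them, are also abundant in muscle, whose genes were lower too, and the part of muscle in this list was not tested. Of 70 nuclear genes of oxidative phosphorylation 8 were lower and none higher (unrescaled 0 and 2), with a median of −0.59 that was 0.05 without rescaling. The cytochrome oxidase subunit cox6b1 stood at 82.6 and 14.1 TPM (8.8-fold lower) and ndufa4 at 90.6 and 23.2 TPM (5.95-fold lower), both far from the rest of that list. Of 13 mitochondrially encoded genes 1 was lower (unrescaled 0 and 0), mt-nd3 at 4417 and 2745 TPM. In cholesterol synthesis 2 of 11 measured genes were higher (unrescaled 5 and 0), the demethylase cyp51 at 1.11 and 6.58 TPM and the epoxidase sqlea at 1.55 and 5.71 TPM.

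**Figure D3:**
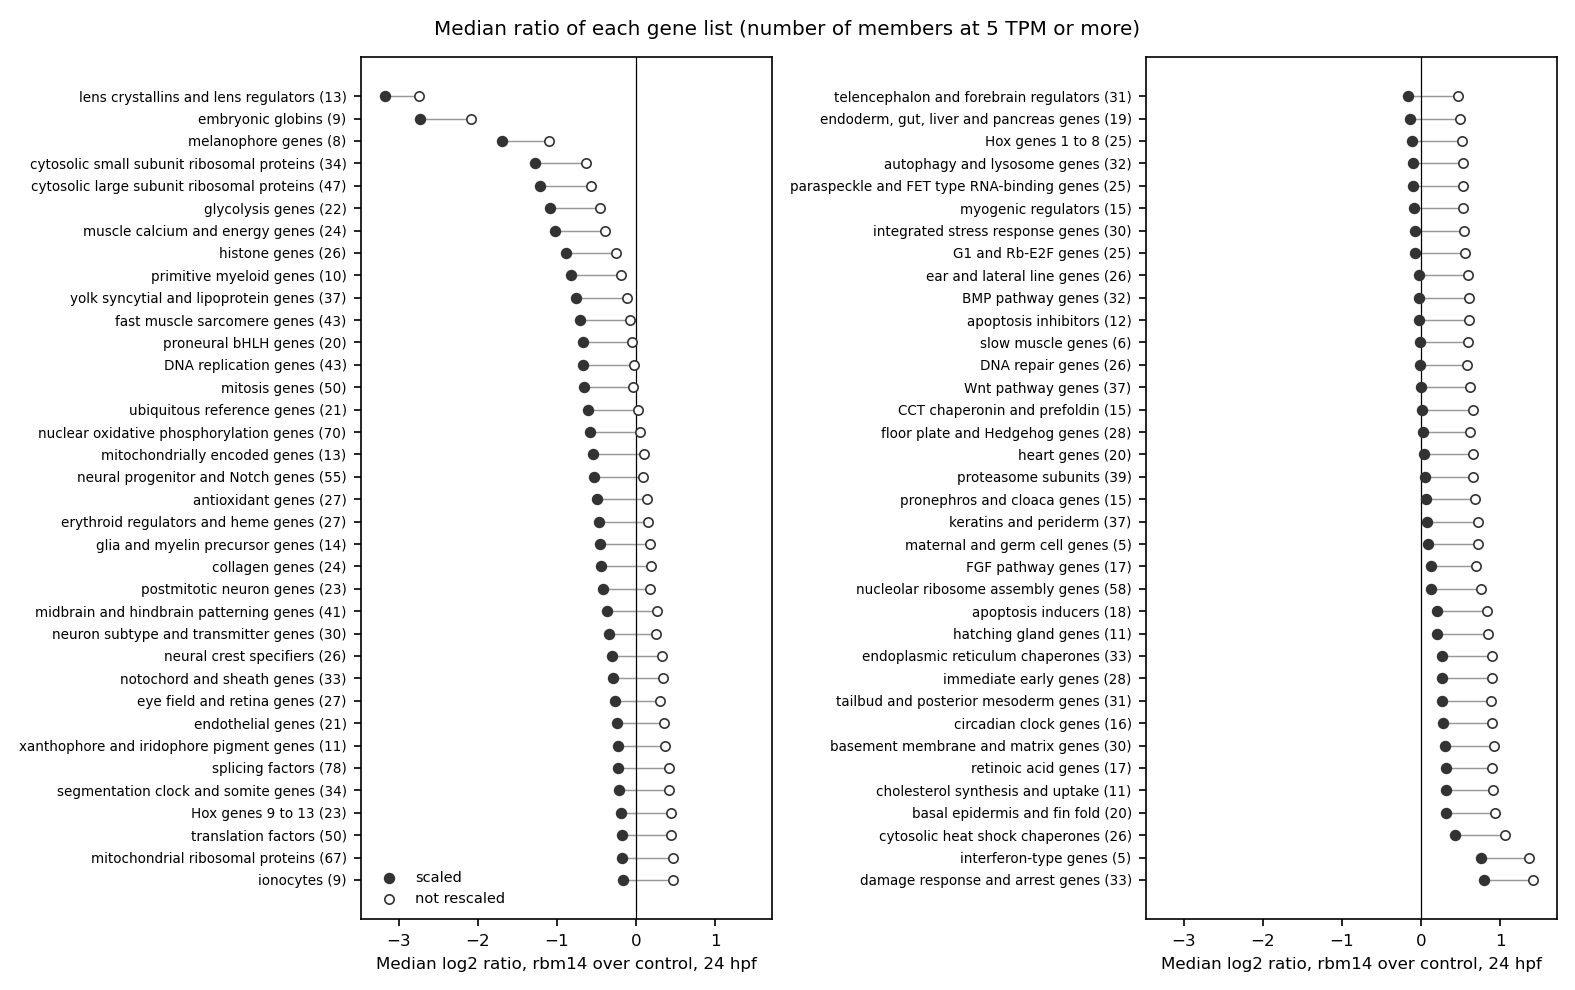
Median log2 ratio of the rbm14 over the control library at 24 hpf for each of the gene lists with at least 5 measured members, whose number stands in brackets. Filled points are the scaled medians and open points the medians without rescaling. Lens, globin and melanophore genes lie lowest and damage response genes highest, and most lists near the middle change sign with the scaling.

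Differentiated tissues differed by type. In pools of whole embryos, fewer cells of a type and less RNA per cell cannot be told apart, and this holds for each tissue below. Of 13 measured lens genes, from 47 matched in the table, 11 were lower and none higher (unrescaled 0 and 10). Their median of −3.17 (−2.73 without rescaling) was the lowest of any list, but its size and rank depended on the pseudocount. With a pseudocount of 5 TPM the lens median was −1.36, above the −2.66 of the embryonic globins. With a floor of 20 TPM no lens median was available. The crystallins named next reached the floor of 5 TPM only in the control library. The beta crystallin crybb1 stood at 13.6 TPM in the control pool against 1.0 TPM in the knockdown pool, and cryba1b at 9.32 and 0.61 TPM. The lens regulator foxe3, which acts before the crystallins, stood at 24.2 and 26.9 TPM and was not called. The named crystallins were thus near 1 TPM in the rbm14 library, while this regulator was level. Crystallin levels were low in both libraries, and near-identical copies may share reads.

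Embryonic globins, the oxygen carriers of the first red cells, were lower in 8 of 9 measured genes (unrescaled 0 and 8), with a median of −2.73 (−2.09 without rescaling). The beta globin hbbe1.1 stood at 2266 TPM in the control pool against 98.9 TPM in the knockdown pool, which at 35.5-fold lower was the largest difference downward among the named genes. Another beta globin gene, hbbe3, stood at 4316 and 1622 TPM and hbbe2 at 382 and 78.5 TPM. The alpha globin hbae3 stood at 3809 and 1462 TPM and hbae1 at 102 and 12.8 TPM. A further beta gene, hbbe1.3, listed in the table as si:ch211-5k11.12, stood at 906 and 123 TPM (11.4-fold lower). The 1 member not called was hbbe1.2, at 245 and 434 TPM. Closely related globin copies can share reads, and their sequences were not compared here. The size of each single globin fold and the order among these genes are therefore uncertain. Globins held 1.25% of all TPM in the control and 0.395% in the rbm14 library. Other erythroid and heme genes were lower in 6 of 27 (unrescaled 4 and 2), with the anion exchanger slc4a1a at 28.1 and 9.02 TPM, the water channel aqp1a.1 at 35.7 and 9.99 TPM and the heme synthesis enzyme alas2 at 43.2 and 27.5 TPM. Genes of primitive myeloid cells were lower in 5 of 10 (unrescaled 1 and 3), with the neutrophil peroxidase mpx at 5.65 and 0.31 TPM and lysozyme, lyz, at 14.1 and 2.11 TPM. The matrix protease mmp13a, on the same list, was higher at 0.30 and 7.34 TPM. Of these myeloid genes, mpx and lyz reached the floor of 5 TPM only in the control library and mmp13a only in the rbm14 library. The myeloid median was −0.82, and −0.21 with a floor of 20 TPM.

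Muscle lists differed, and their direction depended in part on the scaling. Of 43 fast muscle sarcomere genes 16 were lower and 1 higher (unrescaled 5 and 6), with a median of −0.71 (−0.07 without rescaling). The troponin gene tnni2a.4 stood at 88.9 TPM in the control pool against 11.3 TPM in the knockdown pool (11.7-fold lower) and the light chain mylpfa at 2401 and 1219 TPM (3.07-fold lower). The giant scaffold gene obscnb was the higher one, at 3.46 and 26.2 TPM. Genes of calcium handling and energy in muscle were lower in 12 of 24 (unrescaled 3 and 8). The calcium buffer pvalb1 stood at 33.2 and 2.26 TPM (18.1-fold lower), pvalb2 at 388 and 66.1 TPM and the creatine kinase ckmb at 3849 and 1389 TPM (4.32-fold lower). Of the regulators that specify muscle, 15 were measured, and none was lower and 1 higher (unrescaled 2 and 0), with myod1 at 166 and 179 TPM and myog at 261 and 444 TPM. Of 6 slow muscle genes none was higher and 2 lower (unrescaled 1 and 0), with a median of −0.01 (0.59 without rescaling, the opposite sign). The slow troponin gene tnnc1b stood at 124 and 62.4 TPM and the slow myosin gene smyhc1, not called, at 323 and 546 TPM. Of 20 heart genes none was lower and 1 higher (unrescaled 6 and 0), the matrix proteoglycan vcana at 10.7 and 35.9 TPM, and the median was 0.03 (0.66 without rescaling).

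Most melanophore genes were lower as well. Of 8 measured melanophore genes 7 were lower and none higher (unrescaled 0 and 5), with a median of −1.69 (−1.10 without rescaling). With a pseudocount of 5 TPM the median was −0.94, and with a floor of 20 TPM none was available. The 24 hpf melanophore genes named next reached the floor of 5 TPM only in the control library. The melanin enzyme gene tyrp1b stood at 12.1 TPM in the control pool against 1.57 TPM in the knockdown pool, tyrp1a at 22.8 and 4.47 TPM and dct at 7.65 and 3.11 TPM. Of 11 measured genes of yellow and silvery pigment cells only 2 were lower and 1 was higher (unrescaled 1 and 2). Their median was −0.235 (0.37 without rescaling, the opposite sign). The pteridine enzyme gch2, used in yellow pigment cells, stood at 88.5 and 15.7 TPM (8.48-fold lower), and pnp4a, a purine enzyme of silvery pigment cells, at 5.24 and 0.53 TPM. Among 26 specifiers of the neural crest, from which these cells arise, 5 were lower and none higher (unrescaled 3 and 1). The jaw skeleton factor barx1 stood at 7.14 and 1.94 TPM and twist1b at 35.9 and 18.8 TPM, whereas the early crest factors foxd3, at 222 and 298 TPM, and tfap2a, at 64.1 and 87.9 TPM, were not called.

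Genes of the yolk syncytial layer, which feeds the embryo with lipoproteins, were lower in 15 of 37 and higher in 3 (unrescaled 5 and 6). Transferrin, tfa, stood at 471 TPM in the control pool against 115 TPM in the knockdown pool (6.36-fold lower) and the apolipoprotein apoea at 52.8 and 10.9 TPM (7.19-fold lower). The retinol carrier rbp4 stood at 425 and 219 TPM. The very abundant apoa1a, at 8093 and 6005 TPM, was called lower but had a log2 ratio near 0 with the loess scaling, and the large apolipoprotein apobb.1 stood at 824 and 2024 TPM and was not called.

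In the skin, keratins differed by gene. Of 37 keratin and periderm genes 2 were higher and 5 lower (unrescaled 11 and 4). The simple epithelial keratin krt18 stood at 965 TPM in the control pool against 4439 TPM in the knockdown pool (2.95-fold higher) and krt97 at 266 and 1042 TPM (2.51-fold higher). The basal skin keratin krtt1c19e stood at 82.4 and 17.6 TPM and was 7.06-fold lower, while the tight junction gene cldn1 had 79.3 and 24.8 TPM. The periderm marker krt4 stood at 22221 and 27700.2 TPM and was not called. Of 20 genes of the basal epidermis and fin fold 3 were higher and 2 lower (unrescaled 8 and 2), with a median of 0.32. The lower ones included and1, whose product builds the actinotrichia fibres of the larval fin, at 24.5 and 3.49 TPM (9.42-fold lower). The gene aep1 stood at 126 and 8.32 TPM (22-fold lower). Of 9 ionocyte genes none was called (unrescaled 2 and 0), and of 11 hatching gland genes 1 was lower (unrescaled 5 and 0), agr2 at 50.8 and 32.2 TPM.

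Matrix genes were called in both directions, and the balance depended on the scaling. Of 24 collagen genes 7 were lower and 1 higher (unrescaled 5 and 3), and of 33 notochord and sheath genes 8 were lower and 2 higher (unrescaled 8 and 5). The sheath collagen col9a1b stood at 80.5 and 39.1 TPM and the proteoglycan epyc at 7.97 and 2.17 TPM, while the laminin lama1 of the basement membrane stood at 3.59 TPM in the control pool against 24.4 TPM in the knockdown pool (4.02-fold higher) and lamc1 at 11.5 and 40.8 TPM. Among 30 matrix genes 5 were higher and 5 lower (unrescaled 14 and 1), with the gelatinase mmp2 at 13.6 and 83.9 TPM (3.88-fold higher). In the kidney and cloaca, 3 of 15 genes were higher and 2 lower (unrescaled 5 and 2). The pronephric factor hnf1ba stood at 4.89 and 17.4 TPM, and the water channel aqp3a at 43.5 and 11.2 TPM. In vessels, 2 of 21 genes were higher and 2 lower (unrescaled 5 and 1). The arterial ligand efnb2a, at 20.5 and 67.8 TPM, and the receptor gene kdr, at 0.91 and 6.79 TPM, were higher. The receptor tek, at 8.52 and 5.45 TPM, and the water channel aqp1a.1, at 35.7 and 9.99 TPM, were lower.

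**Figure D4:**
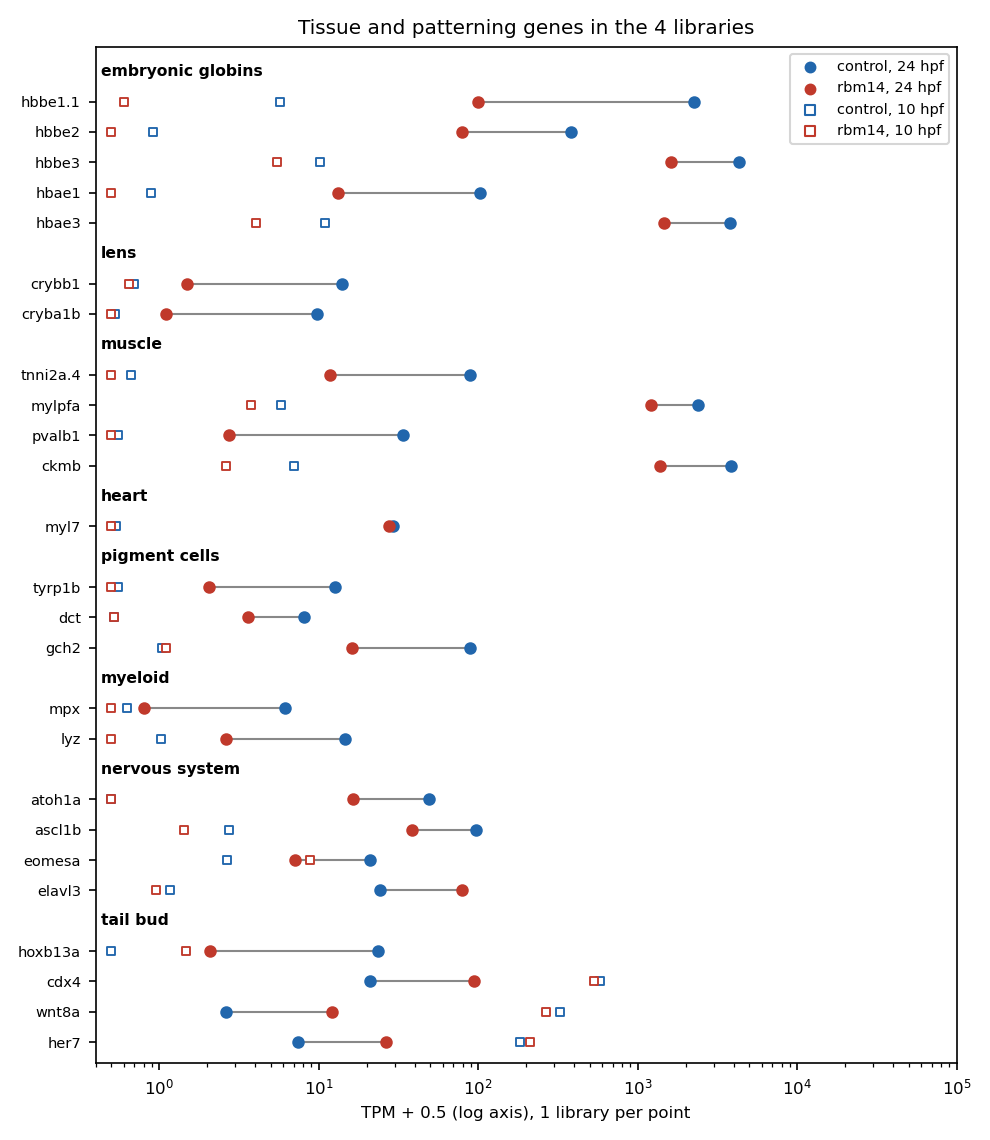
TPM plus 0.5 (log axis) of named tissue and patterning genes in each of the 4 libraries, 1 library per point, with the 24 hpf libraries as filled circles joined by a line and the 10 hpf libraries as open squares. In the globin, lens, muscle, pigment and myeloid genes drawn, the 24 hpf rbm14 library lies below the 24 hpf control and above or level with the 10 hpf libraries, whereas myl7 has nearly equal TPM. The tail bud genes cdx4, wnt8a and her7 lie between the 24 hpf control and the 10 hpf libraries.

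In the nervous system, proneural genes were lower relative to the typical gene. Of 20 proneural genes, basic helix-loop-helix factors that commit cells to a neural fate, 8 were lower and none higher (unrescaled 0 and 3), with a median of −0.67 that was −0.05 without rescaling. The hindbrain and ear factor atoh1a stood at 48.7 TPM in the control pool against 15.9 TPM in the knockdown pool (4.64-fold lower) and ascl1b at 96.8 and 37.8 TPM (3.95-fold lower). The cerebellar and pancreatic factor ptf1a stood at 6.22 and 2.41 TPM. Of 55 progenitor and Notch genes 11 were lower and 1 higher (unrescaled 7 and 3), and the median of −0.54 became 0.09 without rescaling. The Notch target her4.3 stood at 9.14 and 2.31 TPM and her15.2 at 49.3 and 23.1 TPM, both from groups of near-identical copies. The radial glia gene fabp7a stood at 97.7 and 48.2 TPM. The general progenitor factor sox2, at 277 and 234 TPM, and its relative sox3, at 871 and 862 TPM, were not called.

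Neuronal genes were mixed, and which direction prevailed depended on the scaling. Of 23 genes of postmitotic neurons 7 were lower and 2 higher (unrescaled 4 and 1). The RNA-binding neuronal marker elavl3 stood at 23.9 TPM in the control pool against 78.5 TPM in the knockdown pool (2.09-fold higher), and celf4 at 1.11 and 5.82 TPM. The synuclein gene sncga stood at 12.9 and 3.36 TPM, and the neural tubulin tuba1a at 1128 and 646 TPM. Among forebrain regulators 4 of 31 were lower and none higher (unrescaled 2 and 2), with the telencephalic factor eomesa at 20.6 and 6.65 TPM and the hypothalamic factors otpa at 19.4 and 6.89 TPM and otpb at 24.9 and 13.3 TPM. In the eye 4 of 27 genes were lower and 2 higher (unrescaled 2 and 0), with mab21l1 at 111 and 58.3 TPM and the eye field factor six6a at 3.45 and 14.8 TPM. In the midbrain and hindbrain 7 of 41 were lower and 1 higher (unrescaled 5 and 1), with gbx1 at 25.3 and 12.6 TPM. The boundary gene cnpy1 was called lower from its summed TPM, 18.7 and 13.3 TPM, but its most abundant transcript taken alone was not. Of 14 glial genes 6 were lower (unrescaled 0 and 1), including the myelin gene plp1a at 28.4 and 17.9 TPM and the glutamate transporter slc1a2b at 10.16 and 5.08 TPM.

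Few Hox genes, which set position along the body axis, were called. Of 25 Hox genes of groups 1 to 8, active in the hindbrain and trunk, none was called (unrescaled 3 and 0). Among the 23 measured Hox genes of groups 9 to 13, 1 was higher, hoxa11a, and 3 were lower (unrescaled 2 and 1). The lower ones were all of group 13, which marks the end of the body axis: hoxb13a at 23.1 TPM in the control pool against 1.59 TPM in the knockdown pool (16.5-fold lower), hoxa13a at 17.6 and 8.77 TPM and hoxc13a at 14.9 and 7.67 TPM. Without rescaling hoxb13a alone was lower. Genes of the tail bud, the growth zone that is active through somite formation, were higher in 5 of 31 and lower in 3 (unrescaled 12 and 1), the latter being the group 13 genes.

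The higher tail bud genes had more TPM at 10 hpf than at 24 hpf. The posterior homeobox gene cdx4 stood at 20.5 TPM in the control pool against 93.9 TPM in the knockdown pool (2.9-fold higher) and at 578 and 534 TPM in the control and knockdown pools of 10 hpf. The ligand gene wnt8a stood at 2.13 and 11.6 TPM (3.09-fold higher) and at 324 and 266 TPM at 10 hpf. The segmentation clock gene her7 stood at 6.93 and 26 TPM (2.33-fold higher), and at 182 and 211 TPM at 10 hpf. In these genes the 24 hpf rbm14 library lay above its control and far below both 10 hpf libraries. Of 34 measured segmentation clock and somite genes, where her7 had the highest ratio, 3 were higher and 5 lower (unrescaled 8 and 1). Their median was −0.22 (0.41 without rescaling, the opposite sign). The mesoderm factor ta (brachyury), at 52.8 and 57.1 TPM, was not called. After scaling, 2 BMP pathway genes were higher and 2 lower of 32 (unrescaled 7 and 0). For Wnt the counts were 2 and 1 of 37 (unrescaled 8 and 0). FGF had 0 and 1 of 17 (unrescaled 5 and 0), and retinoic acid 3 and 1 of 17 (unrescaled 8 and 0). Over all genes compared, 7.01% were higher and 8.85% lower. The Activin and BMP antagonist fsta stood at 55.7 and 233 TPM (2.67-fold higher), the BMP antagonist nog3 at 7.1 and 3.68 TPM, and the ventral ectoderm factor foxi1 at 37.8 and 122 TPM. The floor plate gene shha, at 29.6 and 43.9 TPM, was not called.

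Some further single genes were also far apart. The transcriptional repressor gene atxn1b stood at 1.48 TPM in the control pool against 49.6 TPM in the knockdown pool (17.1-fold higher), and a copy of the ubiquitin ligase gene RNF14 at 2.47 and 47.8 TPM. The secretory cell factor bhlha15, also called mist1, stood at 3.14 and 56.8 TPM (10.4-fold higher). The pteridine synthesis gene sprb stood at 14.9 and 1.13 TPM and the mitochondrial carrier slc25a4 at 13.2 and 1.09 TPM, both lower. By the amount of TPM, the abundant zgc:92066 stood higher at 893 and 2999 TPM, and zgc:158463 lower at 17351 and 7927 TPM. The adenine nucleotide carrier slc25a5, at 11955 and 8174 TPM, was called lower but had a log2 ratio near 0 with the loess scaling.

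Some genes carried their level on another transcript. Of 2781 genes with at least 2 transcripts and 10 TPM in both libraries, 25 (0.899%) had a main transcript of the control whose share differed by 50 percentage points or more. In each of these the share was lower in the rbm14 library, a direction favoured by choosing the transcript that leads in the control. For oaz1b, the antizyme that limits polyamine synthesis, ENSDART00000160956 stood at 146 TPM in the control pool against 38 TPM in the knockdown pool, and ENSDART00000171800 at 0.13 and 112 TPM. The same exchange was seen at 10 hpf, at 107 and 12.6 TPM for the first and 0.030 and 56.2 TPM for the second. For cnot1, the scaffold of the deadenylase that shortens mRNA tails, ENSDART00000148321 stood at 69.6 and 9.3 TPM and ENSDART00000125459 at 34.2 and 82 TPM. The second led in both 10 hpf libraries, at 121 and 92.9 TPM. For the chromatin remodeller chd7, ENSDART00000016208 stood at 56 TPM in the control and was listed at 0 in the rbm14 library. There ENSDART00000135230 led at 68 TPM, and it led in both 10 hpf libraries too, at 171 and 152.5 TPM. For cnot1 and chd7 the 24 hpf control was thus the library that stood apart. For cbll1, a ubiquitin ligase of the mRNA methylation complex also called Hakai, the exchange ran the other way at 10 hpf. At 24 hpf its transcript ENSDART00000066978 stood at 35.8 TPM in the control pool against 0.61 TPM in the knockdown pool. At 10 hpf the control had 0.54 TPM of it and the rbm14 library 91.7 TPM. These values are the authors' estimates per transcript, in which a 0 can also stand for an estimate that failed.

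**Figure D5:**
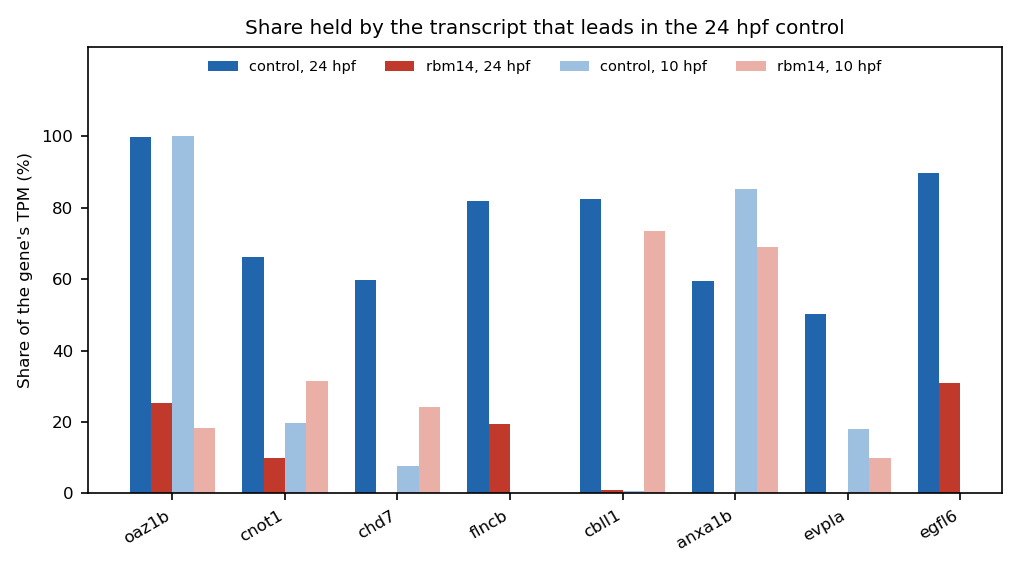
Share of a gene's TPM (%) held by the transcript that leads in the 24 hpf control, in each of the 4 libraries, for the 8 genes of highest level, and plain symbol, among the 25. Bars are single libraries without error, a share at 0 gives no bar, and no bar is drawn where the gene was under 1 TPM. For oaz1b the share was low in the rbm14 library at both stages, and for cbll1 it was low in the rbm14 library at 24 hpf but high in it at 10 hpf. For cnot1 and chd7 the share was highest in the 24 hpf control.

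The earlier pair of libraries shares none with this comparison, so its calls could be set beside these. At 10 hpf, 261 of 7321 genes were higher (3.57%) and 407 lower (5.56%). Of the 24 hpf calls, 285 higher and 406 lower genes were under the floor at 10 hpf and could not be called there. Of the other 354 higher genes 31 were higher at 10 hpf too, 8.76%, which is 11.88% of the 10 hpf list. Among all genes compared at both stages 2.5% were higher at 10 hpf. Of the other 401 lower genes 47 were lower at 10 hpf too, 11.72%, which is 11.55% of the 10 hpf list, beside 4.84% lower among all compared at both. In opposite directions, 11 genes were higher at 24 hpf and lower at 10 hpf, and 11 the reverse, of 6389 genes compared at both stages. The damage response genes ccng1, phlda3, gadd45aa, bbc3 and ddb2 and the AP-1 gene fosab were in the group higher at both. At 10 hpf ccng1 stood at 503 and 898 TPM and phlda3 at 9.7 and 22.2 TPM. There bbc3, at 4.22 and 7.57 TPM, and ddb2, at 5.11 and 9.08 TPM, were close to the floor and only just past 2-fold. The globins hbbe1.1 and hbae3, transferrin tfa, creatine kinase ckmb and the tubulins tuba1a and tuba1b were in the group lower at both. At 24 hpf tuba1b stood at 249.9 and 68.6 TPM. At 10 hpf hbbe1.1 stood at 5.22 and 0.1 TPM, ckmb at 6.5 and 2.13 TPM and hbae3 at 10.49 and 3.54 TPM. These globin and muscle genes were thus weak in the 10 hpf control and under the floor in the 10 hpf rbm14 library. By contrast, tfa, tuba1a and tuba1b were above the floor in both 10 hpf libraries.

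Genes close to the limits show how sharp the rule is. Just above the floor of 5 TPM, the pronephric factor hnf1bb was listed at 0.73 and 5.0 TPM, and just below it strada reached 4.99 TPM and was left out. Closest to 2-fold, taf11 and atp5g3a were just past it at 28.1 and 21.5 TPM and at 102 and 79 TPM, and slc25a36b and slc26a2 were just short of it, at 5.38 and 3.88 TPM and at 7.09 and 22.7 TPM.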

How the data were processed

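Whole zebrafish embryos were profiled by poly(A) RNA-seq, with 1 library of 50 pooled embryos per morpholino group and stage, per the labels' protocols (TRIzol extraction, NEBNext Ultra kit, culture at 28.5°C). The authors deposited TPM for 57596 Ensembl transcripts, each paired with a symbol. That unit was inferred, since every library's values have decimals and add up to 1000000. Trimmomatic 0.30, HISAT2 2.0.1, HTSeq 0.6.1 and the build GRCz10 were used, per the submitters' processing notes, which give no role for each. Neither the quantifier, nor the annotation, nor the strandedness is stated in the sources used here, so reads of overlapping or antisense genes cannot be told apart. TPM keeps no depth, so the depth of each library is unknown and no interval or detection limit was computed.

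Transcripts were summed by symbol into 28697 genes with Python 3.11.15, pandas 2.3.3 and numpy 2.4.6. A symbol can merge several loci. Scaling took the log2 ratios of genes at 1 TPM or more in both libraries, trimmed 30% of ratios and 5% of levels at each end, and averaged the rest without weights. The resulting shift was split evenly between the libraries, and 0.5 TPM was added. Genes with at least 5 TPM in either library were compared, and 2-fold was the size rule. With 1 library per group no test was made. The code was tested on simulated data. Loess scaling (span 0.3) used statsmodels 0.14.6.

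The gene sets (72 lists, 2584 names, of which 2406 matched the table's symbols, 51 matched a synonym and 127 did not match) and the rules were chosen with earlier results of these data known, and genes can be in several lists. The synonym table is of assembly GRCz12tu, which is not the authors' build, and served for names only. Named genes were the 15 highest and 15 lowest called genes with a plain symbol and no value at 0, the 10 largest differences in scaled TPM each way, up to 4 called members and the 2 most abundant members of each list, genes fixed by name, stage markers, genes nearest the limits and the 8 most abundant plainly named genes whose main transcript differed. Promoter and protein sequences were not used here, and 1 gene fixed by name is not reported here.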

Additional observations from a re-analysis of the deposited data

Results flagged for a closer look

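Genes named here that were past the 2-fold rule at both stages in opposite directions were bhlha15 and eomesa, and the difference between the stages was not tested. The log2 ratio of bhlha15 was 3.38 at 24 hpf and −1.06 at 10 hpf, where it stood at 5.95 and 2.15 TPM in the control and knockdown pools. The log2 ratio of eomesa was −2.17 at 24 hpf and 1.95 at 10 hpf, where it stood at 2.16 and 8.31 TPM. Each value comes from 1 library.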

How the results depend on the processing

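No paired analysis was possible because each group had 1 library. For the same reason no library could be left out, and the precision of each value is unknown. Without rescaling, 2460 genes were higher, 250 lower and 24 lower at both stages. With a pseudocount of 5 TPM, 194 were higher and 504 lower, with 9 and 19 shared with 10 hpf. With a floor of 1 TPM, 1258 were higher and 1300 lower (90 and 138 shared), and with 20 TPM 217 and 449 (8 and 14 shared). At 4-fold, 105 were higher and 128 lower (0 and 5 shared). The counts of genes with another main transcript were 14 with 20 TPM in both libraries and 108 at 30 percentage points. Median-of-ratios scaling gave 634 higher and 816 lower genes, a trimmed mean without ribosomal, globin and mitochondrial genes 631 and 816, loess 568 and 674, a pseudocount of 0.1 TPM 728 and 846, and the most abundant transcript of each gene 692 and 781. The sharing with 10 hpf was recounted under these settings by a choice made after seeing the data. Of 246 named genes past the rule, 145 were past it under each of the 4 scalings. Under every change of scaling, pseudocount or transcript choice, 112 were past it. The other floors and the 4-fold rule were left out of that count. The share of called genes that were higher was 44.2%, against 90.8% without rescaling. The sign of named called genes reversed under loess for apoa1a (log2 ratio 0.086), eef1a1l1 (0.087) and slc25a5 (0.04), all very abundant, and for cnpy1 (0.45) with its most abundant transcript alone. The cause of these reversals was not tested.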

Other observations

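Some gene groups outside the main tissues also held called members, beside 7.01% higher and 8.85% lower over all genes compared. The counts of the floor plate and Hedgehog list and of the circadian list lay near these shares. Among 17 retinoic acid genes, the nuclear receptor gene rxrba stood at 5.26 and 23.2 TPM in the control and knockdown pools, the receptor cofactor nrip1b at 5.73 and 27.21 TPM and cyp26c1, which breaks retinoic acid down, at 6.19 and 20.5 TPM, all higher with the rbm14 morpholinos. Of 28 floor plate and Hedgehog genes 2 were higher and 2 lower (unrescaled 8 and 0), with a median of 0.02 (0.62 without rescaling). The cilia factor foxj1b, at 2.58 and 18.6 TPM, and the ligand gene ihha, at 2.07 and 9.38 TPM, were higher. The gene nkx2.2a, at 31.95 and 18.5 TPM, had the list's lowest ratio. In the endoderm and its organs 4 of 19 genes were lower and 2 higher (unrescaled 3 and 2), with the somatostatin gene sst2 at 9.79 and 4.67 TPM.

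Of 16 circadian genes 1 was higher, clockb at 0.79 and 5.12 TPM, and none lower (unrescaled 7 and 0). Of 21 genes often used as references 7 were lower (unrescaled 1 and 2), with actb1 at 9251 and 6337 TPM, gapdh at 885 and 576 TPM and ppiaa at 3187 and 1611 TPM, and the list's median was −0.61 scaled and 0.02 without rescaling. Of 1446 called genes 410 were in any of the lists, beside 1741 of all 9121 genes compared. A symbol built from a clone or locus name was carried by 113 of the higher and 162 of the lower genes. The share of such symbols among all genes compared is not given here.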
